A study of Sparassis latifolia with 12 samples.

Results

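The last storage interval of Sparassis latifolia fruiting bodies was examined, that is, day 24 of cold storage (group D) against day 16 (group C). S. latifolia is the cauliflower mushroom, an edible basidiomycete, and the study asked how its long non-coding RNAs (lncRNAs) and mRNAs change while harvested fruiting bodies age. Fruiting bodies of strain Minxiu No.1, packed in oriented polypropylene (OPP) film, were stored at 4 ℃ for 24 days in group D and for 16 days in group C, and both groups had 3 RNA-seq libraries, so 6 of the 12 libraries of the series entered the comparison. The other 6 libraries came from fresh fruiting bodies (day 0, group A) and from day 8 (group B). No group was kept at another temperature or without film, so days of storage and anything else that differed between the sampling days cannot be told apart. The deposited tables list 13103 mRNAs and 1003 lncRNAs. Those that reached 1 FPKM in 3 or more of the 12 libraries entered the test, 10962 mRNAs and 1002 lncRNAs. The methods speak of 3 replicates per time without naming separate packages for them. The spread between libraries on which the p-values rest may therefore be technical.

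As background, a picked mushroom remains alive: its hyphae respire, use up stored sugars and keep remodelling walls and membranes until the tissue browns and softens. Enzymes of glycolysis and ethanol fermentation, enzymes that remove peroxides, and the synthesis of ergosterol, the main sterol of fungal membranes, are among the pathways the study named in this tissue. It also named amino acid metabolism, protein synthesis and the response to abiotic stimuli. LncRNAs are transcripts above a minimum length with no protein product, and in fungi some of them act on neighbouring or distant genes. Total RNA was depleted of ribosomal RNA, which keeps RNAs that carry no poly(A) tail.

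FPKM is the number of sequenced fragments divided by transcript length and by a total for the library. The deposited values still held whole reads, which were recovered for 100% of the 12475 mRNAs and of the 996 lncRNAs above 0 in at least 4 libraries. mRNA reads numbered 42230610, 40947321 and 37290754 in replicates 1, 2 and 3 of group D and 50831366, 40210653 and 38359043 in those of group C. LncRNA reads numbered 2479552, 1911413 and 2053204 in group D and 8074850, 6953217 and 4248651 in group C. The library total behind the FPKM differed between the tables. For mRNAs it was 0.995 to 1.03 times the reads of the table in group D and 0.944 to 1.02 times in group C, whereas for lncRNAs it was 1.95 to 2.66 times in group D and 0.317 to 0.385 times in group C. LncRNA FPKM are therefore on a scale of their own, and a change of an lncRNA below is a change relative to the other lncRNAs. By the study's sequencing summary, clean reads were on average longer and had fewer errors in groups B and C than in groups A and D, which cannot be told apart from the days. The same summary lists a lower share of uniquely mapped reads in every library of group D than in any of group C. Of these libraries, group D replicate 3 had the lowest share. By this measure groups A and C were high and groups B and D low.

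A total of 2035 mRNAs (18.6% of those tested) were differentially expressed between group D and group C, with a limma adjusted p under 0.05 and a change by at least 1 on the log2 scale. Of these, 1053 (9.61%) were higher and 982 (8.96%) were lower in group D. Among lncRNAs, 268 (26.7%) were differentially expressed, 166 of them (16.6%) higher and 102 (10.2%) lower in group D. Fold changes are on the log2(scaled FPKM + 1) scale, which understates the change of transcripts of low FPKM. The rises were larger than the falls: the median log2 fold change was 1.46 for the mRNAs that rose and -1.37 for those that fell, and 2.31 and -1.51 for the lncRNAs. A log2 change of at least 2 was reached by 240 rising and 118 falling mRNAs and by 108 rising and 19 falling lncRNAs. A change of at least 4 was reached by 15 rising and 8 falling mRNAs and by 11 rising and 6 falling lncRNAs. In 3212 mRNAs (29.3%) every library of group D was above every library of group C, and in 3079 (28.1%) every one was below. The same held for 280 lncRNAs (27.9%) above and 227 (22.7%) below. With the lncRNAs put on the read scale of the mRNAs, 482 were higher and 9 lower in group D, so the split of the lncRNAs into rising and falling holds only on the scale of their own table.

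**Figure D1:**
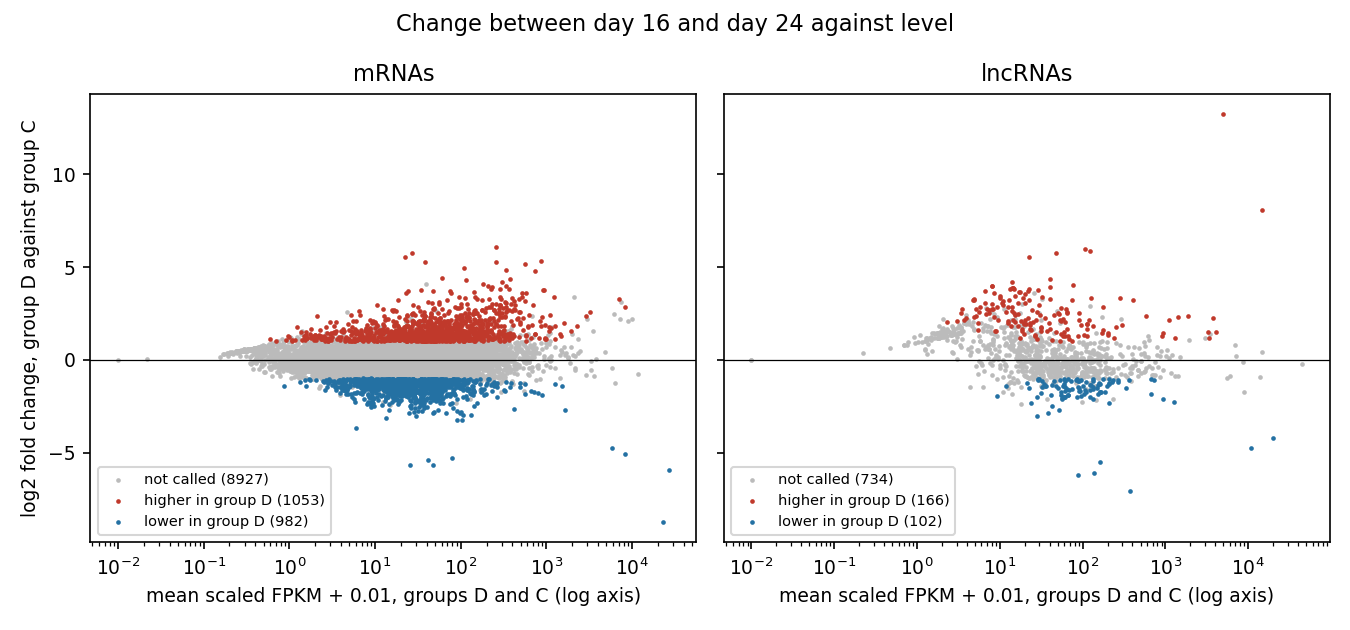
The horizontal axis gives the mean scaled FPKM over the 6 libraries of groups D and C plus 0.01 on a log axis, and the vertical axis the log2 fold change of group D against group C, with 1 point per transcript tested. Red points were called higher in group D (1053 mRNAs, 166 lncRNAs), blue points lower (982 and 102), grey points were not called; the largest change of an lncRNA was 13.26.

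Rising and falling transcripts were not spread evenly over the abundance classes, and which way a class leaned depended in part on how the classes were set. By mean scaled FPKM over the 6 libraries, 149 mRNAs rose and 186 fell among 3048 under 10 FPKM, and 571 rose and 709 fell among 6431 between 10 and 100. In the class of 100 to 1000 FPKM, 317 rose and 80 fell among 1411 mRNAs, a call in 28.1%. Of the 72 mRNAs of at least 1000 FPKM, 16 rose and 7 fell. Among the lncRNAs 33 rose and 1 fell of 200 under 10 FPKM, and 100 rose and 56 fell among 544 between 10 and 100. Between 100 and 1000 FPKM the lncRNAs turned the other way on the scale of their own table, with 23 rising and 42 falling among 225. Of the 33 of at least 1000 FPKM, 10 rose and 3 fell. The medians over all transcripts tested had the same order, 0.38 for mRNAs of 100 to 1000 FPKM and -0.42 for lncRNAs of that class. On the read scale of the mRNAs, however, 91 lncRNAs of that class rose and 3 fell, with a median of 0.82. The classes were also set by groups A and B, whose libraries are not in the comparison, and there 294 mRNAs of 100 to 1000 FPKM rose and 82 fell, against 22 and 45 lncRNAs. Set by group C alone the same classes held 119 rising and 131 falling mRNAs, and after quantile normalization, which gives all libraries the same distribution, they held 216 and 153 mRNAs and 32 and 32 lncRNAs. Group C is itself part of the comparison, so classes set by it favour rises among low transcripts and falls among high ones. Counts by group C alone therefore cannot decide how a class leaned. The lowest and highest classes turned as well: with classes by group C alone, 277 mRNAs rose and 90 fell under 10 FPKM, and 3 rose and 11 fell at 1000 FPKM or more. In that top class 7 mRNAs rose and 8 fell with classes by groups A and B, and 9 and 7 after quantile normalization, which also left 4 rising and 4 falling lncRNAs under 10 FPKM.

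Abundant mRNAs became more numerous while the few at the top lost their share. mRNAs of at least 1000 FPKM numbered 90, 90 and 81 in the libraries of group D, against 53, 56 and 59 in those of group C. The 10 most abundant mRNAs of each library held 13.1% ± 2.66 of the summed FPKM in group D and 21.5% ± 2.62 in group C (SD, n = 3 each). The groups did not overlap in either measure, and the exact two-sided permutation p was 0.1, the smallest that 3 against 3 libraries allow, so this design cannot reach 0.05 for a single value. The share held by all mRNAs of at least 1000 FPKM was 30.6% ± 2.86 in group D and 32.1% ± 2.43 in group C, and the groups overlapped (exact permutation p = 0.5). For lncRNAs the 10 most abundant held 52.0% ± 3.26 in group D and 61.0% ± 2.36 in group C (exact permutation p = 0.1). The share in lncRNAs of at least 1000 FPKM was 73.0% ± 3.71 in group D and 71.6% ± 2.79 in group C (exact permutation p = 0.6), a difference of 1.45 percentage points that became -0.681 without group D replicate 1.

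Transcript length separated the rising from the falling transcripts in both classes of RNA. Length here is the one by which the FPKM had been divided, read back from the values. The mRNAs that rose had a median length of 615 nt and those that fell 1754 nt, beside 1317 nt over all tested. The lncRNAs that rose had a median of 592 nt and those that fell 1817 nt, beside 923 nt over all tested. Of mRNAs under 500 nt, 395 of 1520 (26.0%) rose and 79 (5.20%) fell. Of mRNAs of at least 2000 nt, 25 of 2809 (0.890%) rose and 424 (15.1%) fell. Of lncRNAs under 500 nt, 69 of 180 (38.3%) rose and 3 (1.67%) fell, and of those of at least 2000 nt 7 of 122 (5.74%) rose and 34 (27.9%) fell. The lengths between lay between, and the median log2 fold change went down with each step of length, 0.48, 0.34, 0.00 and -0.33 for mRNAs and 1.58, 0.57, -0.16 and -0.65 for lncRNAs. The order of these medians by length also held within each abundance class of mRNAs up to 1000 FPKM, but not among lncRNAs under 10 FPKM, whose medians were 1.18 to 1.65 at every length. Nor did it hold among lncRNAs of at least 1000 FPKM, with 0.52, 0.28, 1.19 and -0.94 from the shortest to the longest. Between 100 and 1000 FPKM, 157 of 267 mRNAs under 500 nt rose and 6 fell, whereas 4 of 254 of at least 2000 nt rose and 29 fell.

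The levels in single libraries showed the same. mRNAs under 500 nt had a median scaled FPKM of 10.9, 9.79 and 9.90 in group D, against 8.89, 9.72 and 7.84 in group C, close together at their nearest libraries. mRNAs of at least 2000 nt had medians of 22.8, 23.0 and 23.2 in group D, against 32.0, 30.9 and 33.9 in group C. For lncRNAs under 500 nt the medians were 25.7, 21.7 and 22 in group D and 7.96, 9.94 and 6.40 in group C, and for those of at least 2000 nt they were 42.4, 42.7 and 34.5 in group D and 77.7, 65.2 and 60.2 in group C. The groups did not overlap in any of these medians (exact permutation p = 0.1 each, the smallest possible). On the read scale of the mRNAs, lncRNAs of at least 2000 nt turned, with 25 rising and 4 falling and a median of 0.57. After a smooth trend on length had been removed from each library, an alternative chosen after the data were seen, 1669 mRNAs were called, 770 higher and 899 lower in group D, and 1354 of them were among the 2035. For lncRNAs 195 were then called, 94 higher and 101 lower, with 142 among the 268. Whether length or something that goes with it moved the values was not tested.

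**Figure D2:**
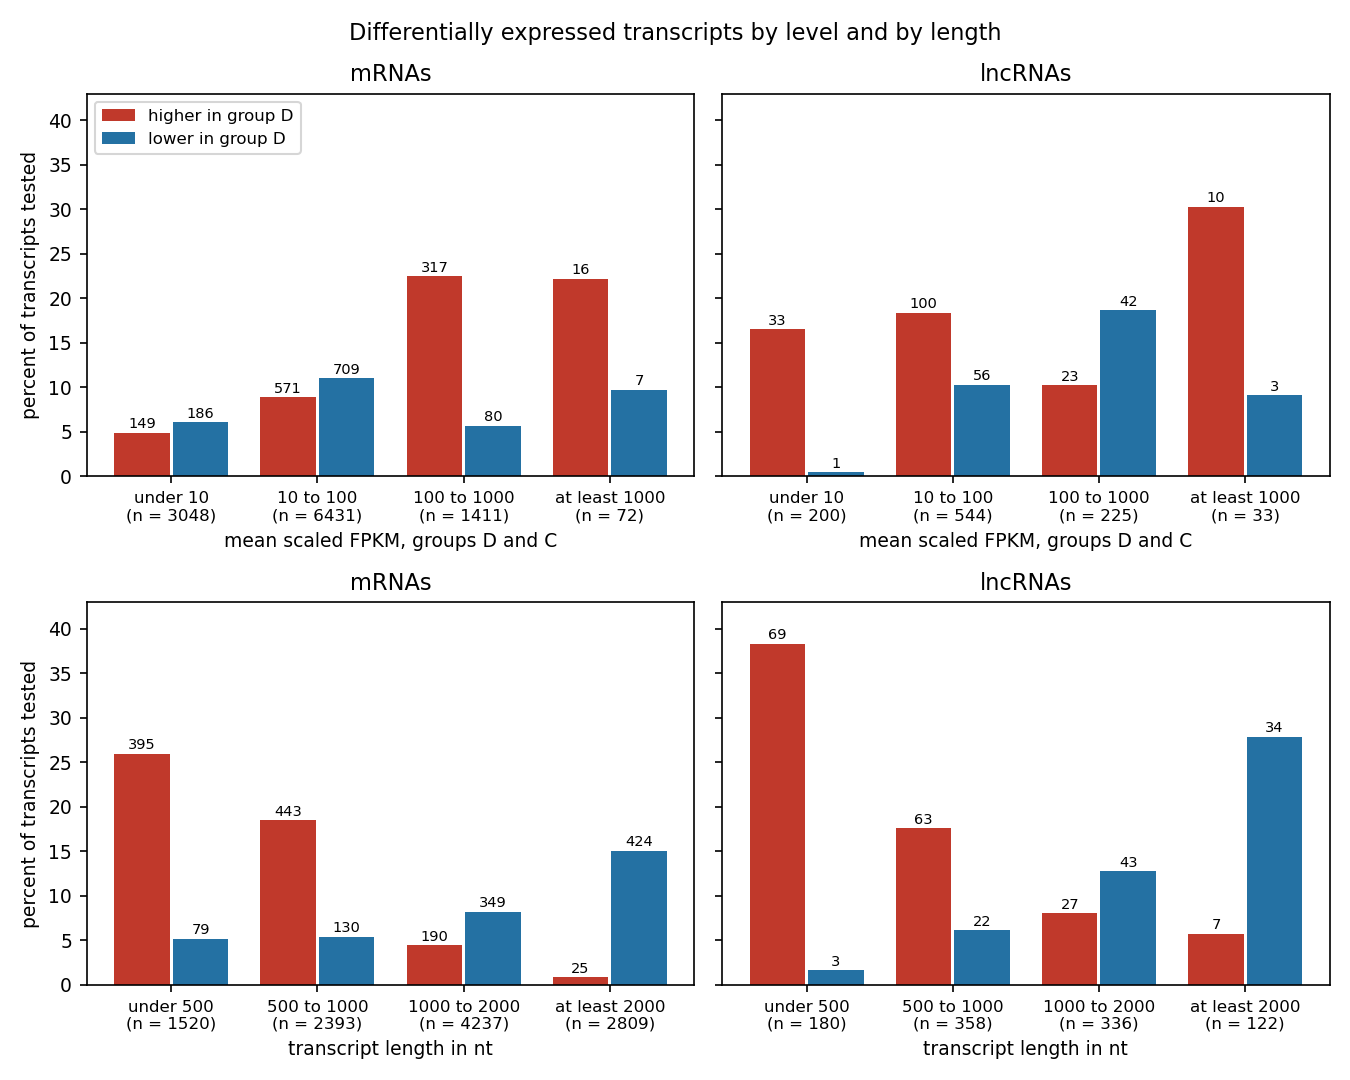
Bars give the percent of the transcripts tested in each class that were higher (red) or lower (blue) in group D than in group C, with their number above the bar and the class size in brackets; the upper panels use classes of mean scaled FPKM and the lower panels classes of length in nt, for mRNAs on the left and lncRNAs on the right. Rising transcripts gather among short ones (395 of 1520 mRNAs and 69 of 180 lncRNAs under 500 nt) and falling ones among long ones (424 of 2809 and 34 of 122 at 2000 nt or more).

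LncRNAs as a class gained reads relative to mRNAs, apart from a pair of very long lncRNAs that lost most of theirs. XLOC_013075 and XLOC_014006, with lengths of 42991 and 46976 nt, held 28.3% to 29.2% of all lncRNA reads in the libraries of group D and 87.5% to 91.1% in those of group C. With them, lncRNA reads numbered 5.87, 4.67 and 5.51 per 100 mRNA reads in group D and 15.9, 17.3 and 11.1 in group C. Without them there were 4.21, 3.32 and 3.90 in group D and 1.54, 1.54 and 1.38 in group C, a mean of 3.81 ± 0.450 against 1.49 ± 0.0911 (SD, n = 3 each), 2.56-fold higher in group D. The groups did not overlap in either count, and the direction turns with these 2 lncRNAs (exact permutation p = 0.1 both ways). In fresh fruiting bodies the count without the pair was 2.68 to 3.33, and on day 8 it was 1.13 to 1.52, so groups A and D were high and groups B and C low.

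**Figure D3:**
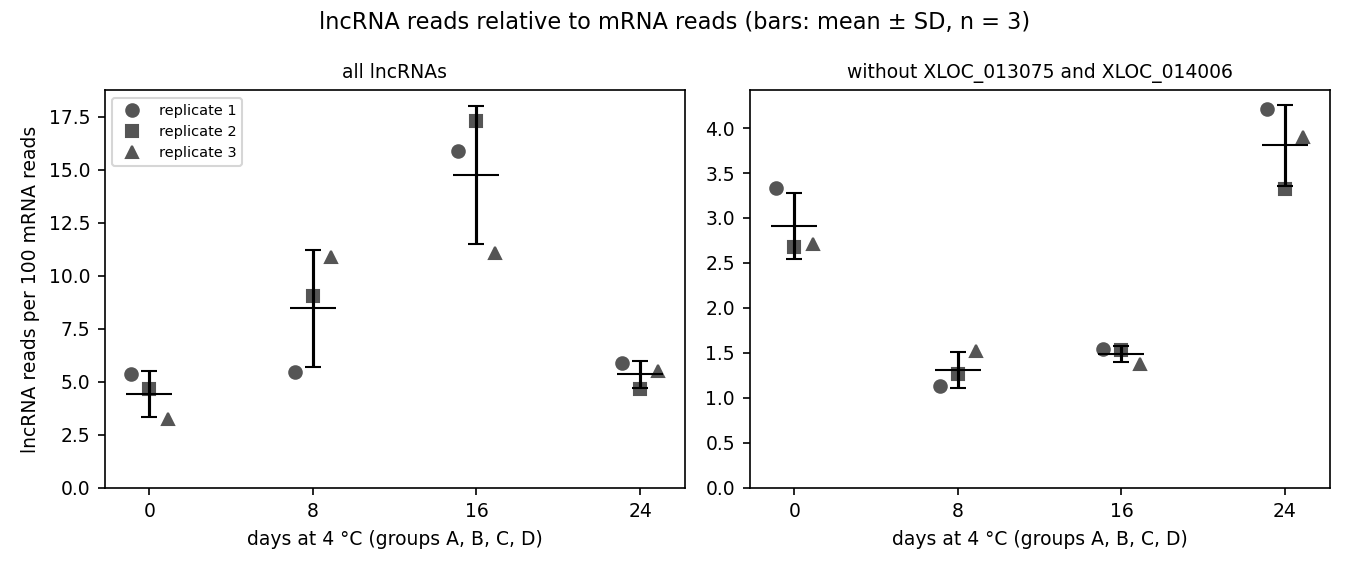
The vertical axes give lncRNA reads per 100 mRNA reads and the horizontal axes days at 4 ℃; each point is a library (shape by replicate number) and each bar the mean ± SD of 3. With all lncRNAs (left) group C was highest (11.1 to 17.3), and without XLOC_013075 and XLOC_014006 (right) group D had the highest mean (3.32 to 4.21 in its libraries) and groups B and C the lowest.

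The level of lncRNAs against mRNAs depended on the scale. With FPKM as deposited, the median lncRNA was 2.16 ± 0.168 times the median mRNA in group D and 1.90 ± 0.121 times in group C (SD, n = 3 each, exact permutation p = 0.2). With both classes on the read scale of the mRNAs it was 0.261 ± 0.0225 times in group D and 0.0979 ± 0.0174 times in group C (exact permutation p = 0.1). The lncRNA share of all summed FPKM was 23.9% ± 2.61 in group D and 27.3% ± 1.37 in group C as deposited (exact permutation p = 0.2), but 3.67% ± 0.393 in group D and 1.88% ± 0.134 in group C on the common scale (exact permutation p = 0.1). As the tables had been normalized separately, only the second pair of values compares the classes within a library.

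The 8 mRNAs that rose most by fold were shorter than the median mRNA and, all but 2 of them, under 15 scaled FPKM on day 16. The files name no product for any of them, so their roles are not given. EVM0003636, of 195 nt, had a scaled FPKM of 614, 398 and 518 in group D, against 7.13, 5.18 and 7.22 in group C, a 78.4-fold rise (log2 fold change 6.08 ± 0.28 SE, limma adjusted p = 1.1e-06). All 3 libraries of group D were far above those of group C. EVM0004922 had 53.1, 57.2 and 51.0 in group D and was listed at 0 in all 3 libraries of group C. Set against 3 reads per library it was at least 539-fold higher in group D, from 1622, 1767 and 1421 reads (limma adjusted p = 0.00063). EVM0007778 had 45.0, 45.0 and 46.1 in group D and 0 in every library of groups C and B, at least 327-fold higher in group D on the same floor (limma adjusted p = 1.1e-06). Fresh fruiting bodies had both transcripts, with 33.5 to 50.5 for EVM0004922 and 36.5 to 88.0 for EVM0007778.

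EVM0000246, EVM0008039, EVM0010071 and EVM0005766 rose in the same way, with log2 fold changes of 5.28, 5.25, 5.19 and 4.94. EVM0010071, of 156 nt, had 1222, 1023 and 1078 in group D, against 31.5, 32.2 and 24.8 in group C. EVM0008039 had 602, 480 and 442 in group D, against 11.5, 14.2 and 11.2 in group C. EVM0000246 had 77.9, 81.4 and 69.7 in group D and 1.13, 0.924 and 0.907 in group C, and EVM0005766 had 214, 191 and 226 in group D and 7.21, 6.88 and 4.06 in group C. In all of these the fresh libraries were again near group D and the day 8 libraries near group C. EVM0007112 was the exception, with 2495, 580 and 1938 in group D, against 61.8, 10.7 and 57.1 in group C (log2 fold change 5.34 ± 1.34 SE, limma adjusted p = 0.010). Its fresh libraries held only 2.23 to 31.5, so it was higher on day 24 than on day 0.

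By FPKM gained, 4 other mRNAs came first among those called. EVM0011102, of 192 nt, had 20792, 6904 and 16213 in group D, against 1736, 2308 and 1569 in group C (log2 fold change 2.84 ± 0.65 SE, limma adjusted p = 0.0062). EVM0000581, of 174 nt, had 14133, 10182 and 14071 in group D, against 1368, 1486 and 1111 in group C (log2 fold change 3.27 ± 0.83 SE, limma adjusted p = 0.011). EVM0009988 had 7148, 3366 and 6206 in group D and 942, 793 and 970 in group C. EVM0002937 had 3237, 6787 and 4720 in group D and 883, 1189 and 694 in group C. All 4 were well above group C in every library of group D, although replicate 2 held the lowest value of group D in the first 3 of them. The call of EVM0009988 was lost without group D replicate 1 or 3 or without group C replicate 2, and that of EVM0002937 (limma adjusted p = 0.031) in 7 of 22 alternatives.

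Among the mRNAs that fell most, 4 had a length of 279 nt and made up much of the mRNA pool on day 16. EVM0006046 had 1044, 666 and 911 in group D, against 57431, 61273 and 39465 in group C (log2 fold change -5.91 ± 0.70 SE, limma adjusted p = 0.00011). EVM0012259 had 1070, 0 and 1053 in group D, against 44277, 56708 and 34843 in group C (log2 fold change -8.74 ± 2.93 SE, limma adjusted p = 0.040). Its call was lost in 9 of 22 alternatives, and without group D replicate 2, the library at 0, its log2 fold change was -5.39. EVM0002162 had 556, 372 and 524 in group D, against 18891, 18070 and 11849 in group C, and EVM0008318 had 502, 326 and 414 in group D, against 12905, 12861 and 7751 in group C. Together the 4 held 0.278% ± 0.10 of the summed mRNA FPKM in group D and 15.8% ± 3.47 in group C, but only 0.0704% ± 0.0268 of mRNA reads in group D and 3.44% ± 0.879 in group C, since FPKM weights short transcripts. In fresh fruiting bodies they held 0.112% to 0.497% of the FPKM and on day 8 8.07% to 16.2%. Whether they are copies of one gene that share reads was not tested, so their single values are uncertain.

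The other falling mRNAs of that rank had under 200 scaled FPKM on day 16 and at most 6.01 in group D. EVM0011304 was listed at 0 in all 3 libraries of group D and had 63.9, 38.1 and 52.6 in group C, so that it was at least 280-fold lower in group D on a floor of 3 reads (limma adjusted p = 0.0020). EVM0009353 had 0, 0 and 5.0 in group D, against 111, 76.7 and 91.8 in group C. EVM0008604 had 0, 0 and 5.81 in group D, against 109, 62.6 and 72.5 in group C. EVM0006256 had 2.26, 1.47 and 6.01 in group D, against 169, 107 and 191 in group C (log2 fold change -5.31 ± 0.69 SE, limma adjusted p = 0.00021). Replicate 3 held the highest value of group D in the last 3 of these, which were 396 to 399 nt long. All 4 were at or near 0 in fresh fruiting bodies as well (0 to 4.45).

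The lncRNA that rose most was listed at 0 on days 8 and 16. XLOC_005632, of 1119 nt, had 12825, 8420 and 8668 in group D and was listed at 0 in every library of groups C and B. With a floor of 3 reads per library it was at least 7797-fold higher in group D (limma adjusted p = 4.6e-13), from 69571, 43533 and 53011 reads. Fresh fruiting bodies had 6793 to 11635, the same range as group D. XLOC_002341, the most abundant of the risers, had 36774, 27720 and 23136 in group D, against 712, 646 and 1.58 in group C (log2 fold change 8.08 ± 1.78 SE, limma adjusted p = 0.0054). Its libraries in group C differed widely, with 1387, 1181 and 2 reads behind them.

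XLOC_005268 had 245, 285 and 188 in group D, against 13.9, 0 and 3.57 in group C, and only 8.07 to 13.6 in fresh fruiting bodies, so its rise was not matched on day 0. XLOC_000742 had 137, 110 and 39.3 in group D, against 3.04, 0 and 0 in group C. XLOC_001022 had 265, 218 and 132 in group D, against 0, 29.2 and 0 in group C (log2 fold change 5.99 ± 1.99 SE, limma adjusted p = 0.039), and its call was lost in 11 of 24 alternatives. Among called lncRNAs, XLOC_006639 gained the most FPKM after XLOC_002341 and XLOC_005632, with 8438, 5658 and 4676 in group D, against 1109, 975 and 1844 in group C. Its rise of 4.78-fold was smaller than theirs, and the groups did not overlap.

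The lncRNAs that fell most bore identifiers of 2 narrow number ranges. XLOC_013075 had 2418, 2013 and 1761 in group D, against 42290, 36168 and 34926 in group C (log2 fold change -4.20 ± 0.61 SE, limma adjusted p = 0.00046). XLOC_013078 had 3.72, 1.95 and 23.1 in group D, against 340, 252 and 350 in group C, and XLOC_013079 had 2.91, 0.218 and 31.7 in group D, against 959, 495 and 755 in group C. XLOC_014006 had 869, 695 and 726 in group D, against 22869, 23906 and 16446 in group C (log2 fold change -4.77 ± 0.51 SE, limma adjusted p = 0.00010). XLOC_014038 had 0.775, 0 and 6.19 in group D, against 195, 140 and 189 in group C, and XLOC_014041 had 0.949, 1.99 and 9.82 in group D, against 279, 266 and 266 in group C. No library of group D reached the lowest of group C in any of the 6, and replicate 3 was the highest of group D in the 4 short ones. Once the length trend was removed, the log2 fold change was -0.33 for XLOC_013075 and -0.77 for XLOC_014006, and neither was called. The trend was fitted to all lncRNAs, these 2 included. At lengths so far above the median the curve may follow their own values, so the lost calls cannot decide whether length moved them. Among called lncRNAs, XLOC_004061 lost the most FPKM after these 2, with 414, 372 and 268 in group D, against 1640, 1478 and 1388 in group C, and fell by 2.11 on the log2 scale. On the read scale of the mRNAs its log2 fold change was -0.87, which was not called. Where these transcripts lie in the genome was not examined.

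**Figure D4:**
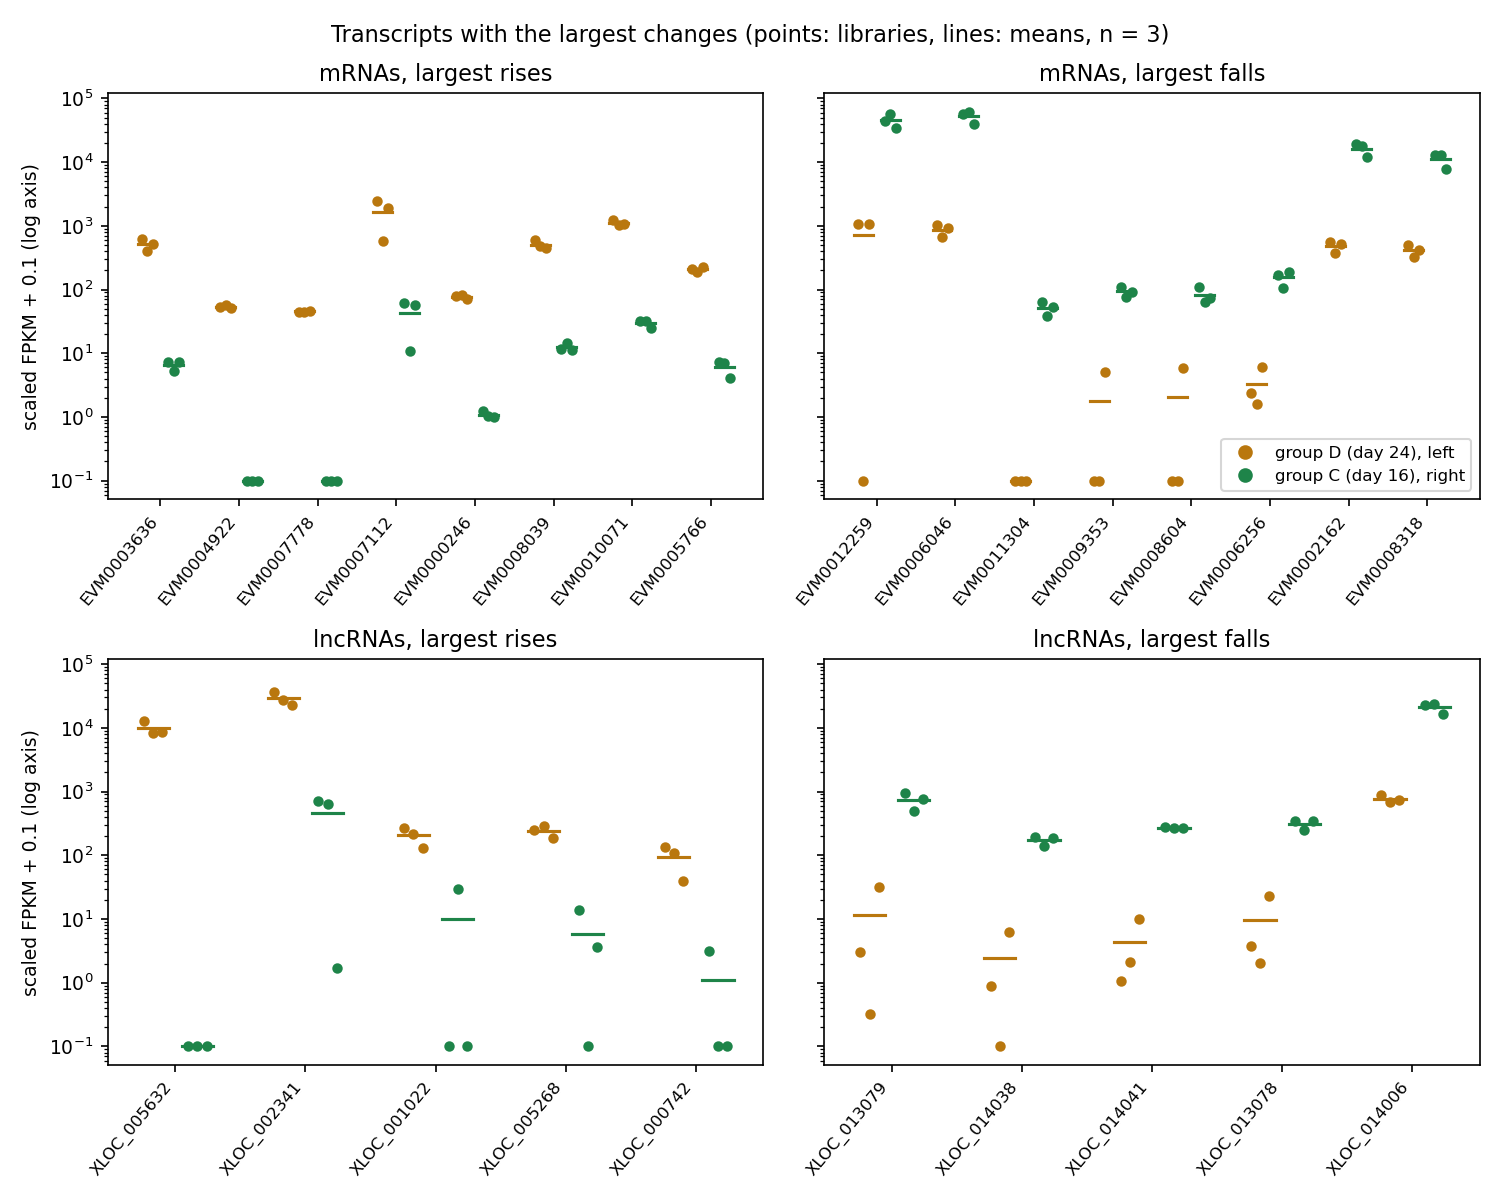
Each panel gives the scaled FPKM plus 0.1 (log axis) of the transcripts with the largest rises or falls, group D on the left of each name and group C on the right; points are libraries, lines the mean of 3, and points at the bottom are libraries listed at 0. EVM0004922, EVM0007778 and XLOC_005632 stand at 0 in all of group C and EVM0011304 in all of group D; the groups do not overlap because transcripts without overlap were chosen.

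Some of the most abundant transcripts did not pass the test. EVM0009098 had 6239, 7753 and 13082 in group D and 10960, 15893 and 16833 in group C, with overlapping groups. EVM0011517 had 18122, 11474 and 19252 in group D, against 3255, 3468 and 3691 in group C, and EVM0000336 had 17414, 9390 and 17076 in group D, against 2836, 2760 and 4347 in group C. Group D lay above group C in every library of these last 2, but the limma adjusted p over all 4 groups was 0.063 and 0.15 (log2 fold changes 2.20 and 2.12). On day 8, replicate 3 had 8044 and 6240, against at most 2031 and 654 in the other libraries of that day, and in a fit of groups D and C alone both were called. The most abundant lncRNA, XLOC_009279, had 51169, 37878 and 34745 in group D and 52529, 36658 and 55943 in group C, with overlapping groups. XLOC_002861 had 27662, 8205 and 16499 in group D and 10906, 12517 and 11503 in group C, with overlapping groups. Its reads did not overlap, with 78179, 22101 and 52569 in group D and 16027, 17263 and 10966 in group C. On the read scale of the mRNAs it was called higher in group D (log2 fold change 1.66). XLOC_007146 had 9409, 10368 and 8597 in group D and 19340, 13204 and 23037 in group C, lower in every library of group D but not called (limma adjusted p = 0.22). Its reads numbered 101304, 106397 and 104348 in group D and 108275, 69376 and 83663 in group C. Relative to mRNA reads it was not lower in group D, so the lower values hold only on the scale of the lncRNA table.

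More transcripts were detected on day 24, much of it in a single library. mRNAs above 0 numbered 11480, 11133 and 12789 in group D and 11024, 11061 and 10956 in group C, and lncRNAs above 0 numbered 950, 914 and 995 in group D and 862, 876 and 821 in group C. Outside XLOC_013075 and XLOC_014006, lncRNAs had a mean of 3.81 reads per 100 mRNA reads in group D and 1.49 in group C. The counts of detected lncRNAs were not adjusted for this difference in depth. Replicate 3 of group D stood apart: of the 1939 mRNAs at 0 in all of group C it had 1663 above 0, at a median of 0.508 FPKM, while replicates 1 and 2 had 456 and 134. Of the 99 lncRNAs at 0 in all of group C, replicates 1, 2 and 3 had 56, 30 and 94 above 0. Without replicate 3 the difference in mRNAs was 293 instead of 787, and in lncRNAs 79 instead of 100. Without it 988 mRNAs were higher and 903 lower in group D, and 130 and 74 lncRNAs. Transcripts above 0 in all of group D and at 0 in all of group C numbered 82 mRNAs, at a median of 0.390 FPKM, and 24 lncRNAs, at a median of 9.76 FPKM. The opposite held for 5 mRNAs and for 0 lncRNAs. All 24 of these lncRNAs were above 0 in every fresh library, as were 979 of all 1003, and 17 were at 0 in every library of day 8.

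The last interval ran opposite to the first. Group B and group A share no library with groups D and C, and between them 30.5% of the mRNAs were called, 13.6% higher and 16.8% lower in group B. Of the lncRNAs 49.8% were called, 16.9% higher and 32.9% lower in group B. Both comparisons came from the same fit, with a shared spread for each transcript. Transcripts of low spread are therefore called more readily in both, which raises the shares below. Of the 1053 mRNAs that rose in group D, 766 (72.7%) were lower and 3 higher in group B than in group A. Of the 982 mRNAs that fell, 737 (75.1%) were higher and 4 lower in group B. Of the 166 lncRNAs that rose, 126 (75.9%) were lower and 0 higher in group B, and of the 102 that fell, 75 (73.5%) were higher and 0 lower. As a description over transcripts, which are not independent replicates and which share length and library composition, Pearson's r between the log2 fold changes was -0.72 over the 10962 mRNAs and -0.74 over the 1002 lncRNAs. Short transcripts moved the other way in the first interval too: of mRNAs under 500 nt, 539 were lower and 132 higher in group B than in group A, and of those of at least 2000 nt 148 were lower and 549 higher.

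The values of all 4 days gave a pattern of 2 pairs of groups. In 777 of the 1053 mRNAs that rose (73.8%), every library of groups D and A was above every library of groups C and B, which held for 46.6% of the 3212 mRNAs with every library of group D above group C. In 769 of the 982 mRNAs that fell (78.3%), every library of groups D and A was below, beside 48.0% of the 3079 with group D below group C. For lncRNAs the shares were 73.5% of the risers, beside 56.8% of the 280 with group D above, and 74.5% of the fallers, beside 47.6% of the 227 with group D below. These are descriptions, since being called already asks for group D to stand apart from group C. The length and error rate of the clean reads, described above, divided the groups in the same way, whereas the share of uniquely mapped reads did not. The part of either in these changes was not tested.

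**Figure D5:**
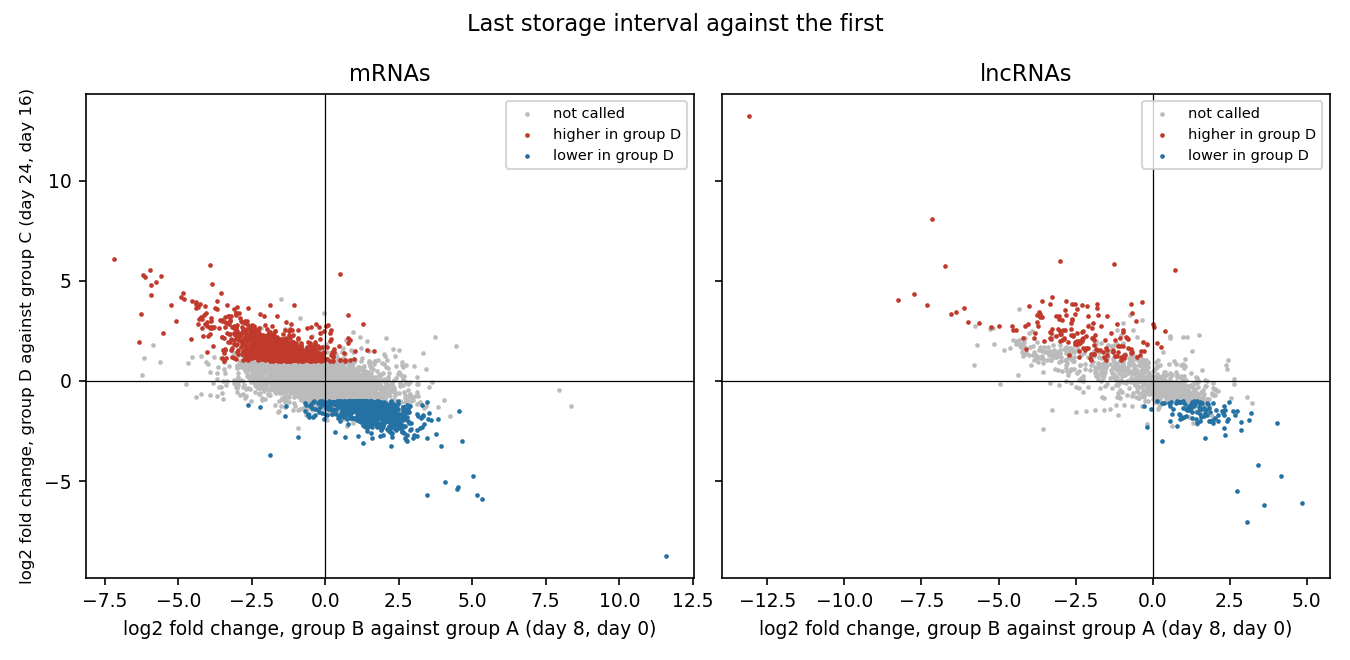
Each point is a transcript tested, with the log2 fold change of group B against group A (day 8, day 0) on the horizontal axis and that of group D against group C (day 24, day 16) on the vertical axis; red and blue points were called higher and lower in group D, grey points were not called. Most red points lie left of 0 and most blue points right of 0 (766 of 1053 rising mRNAs were lower in group B, 737 of 982 falling ones higher), with Pearson's r of -0.72 for mRNAs and -0.74 for lncRNAs.

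Of the 6 mRNAs that the study placed in the ergosterol pathway, 0 were called in either direction by limma, beside 18.6% of all mRNAs tested, and their median log2 fold change was 0.06, beside 0.01 over all mRNAs tested. At an unadjusted p under 0.05, limma had 1 of them, ERG25. The share of all mRNAs at that threshold was not counted, so this is not read as an excess. ERG25 (EVM0000111), in yeast the C-4 methyl sterol oxidase, had 101, 119 and 142 in group D, against 59.7, 63.7 and 67.3 in group C, without overlap (log2 fold change 0.90 ± 0.33 SE, limma adjusted p = 0.057). ERG3 (EVM0012147), in yeast the C-5 sterol desaturase, had 23.7, 19.1 and 41.7 in group D and 14.6, 19.7 and 14.9 in group C, with overlap. ERG13 (EVM0005394), HMG-CoA synthase at the head of the pathway, had 56.8, 35.1 and 56.0 in group D and 39.6, 39.4 and 57.0 in group C. ERG4 (EVM0003490), the reductase of the last step in yeast, had 22, 15.4 and 20.2 in group D and 19.4, 17.2 and 19.6 in group C. EVM0000659 had 43, 52.8 and 44.4 in group D, against 60.6, 60.4 and 62.3 in group C, lower without overlap but not called (log2 fold change -0.39 ± 0.35 SE, limma adjusted p = 0.44). EVM0004880 had 25.9, 30.9 and 26.4 in group D and 29.6, 30.5 and 48.4 in group C. In all 6 the mean of group D was below that of fresh fruiting bodies, which was 133 to 502. The study chose this list and those below on these same samples, so their counts are not independent evidence of a direction.

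Of 5 mRNAs of energy metabolism and fermentation, 0 rose and 1 fell, beside 9.61% and 8.96% of all mRNAs tested. PDC (EVM0009327), pyruvate decarboxylase, which turns pyruvate into acetaldehyde for ethanol fermentation, had 226, 309 and 333 in group D, against 803, 417 and 884 in group C, without overlap. Its log2 fold change was -1.22 ± 0.43 SE with a limma adjusted p of 0.048, and the call was lost in 14 of 22 alternatives, among them those without any 1 library of group D and without replicate 1 or 3 of group C. PK (EVM0009831), pyruvate kinase of glycolysis, had 4427, 2772 and 4435 in group D and 4779, 2498 and 3908 in group C. ADH1 (EVM0007108), alcohol dehydrogenase, had 4841, 2436 and 2873 in group D and 3116, 3743 and 3109 in group C. FDH (EVM0012176), formate dehydrogenase, had 565, 668 and 423 in group D and 491, 698 and 652 in group C. The groups overlapped in these last 3. GPDH (EVM0008918) had 39.6, 33.1 and 31.8 in group D, against 66.4, 43 and 55.3 in group C (log2 fold change -0.63 ± 0.37 SE, limma adjusted p = 0.23). Of the antioxidant pair, CAT (EVM0011998), catalase, had 105, 24.4 and 47.0 in group D and 45.0, 46.6 and 65.7 in group C, and GST2 (EVM0000573), a glutathione S-transferase, had 41.5, 38.1 and 51.2 in group D and 17.0, 38.4 and 21.1 in group C. Neither passed the test (limma adjusted p = 0.95 and 0.22).

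The transcripts that the study had chosen for PCR gave 1 call among 6 mRNAs and 2 among 6 lncRNAs, beside 18.6% of all mRNAs and 26.7% of all lncRNAs tested. EVM0001829 had 47.9, 39.5 and 40.7 in group D, against 107, 101 and 109 in group C, so it fell by 1.29 on the log2 scale (limma adjusted p = 0.00023), with no library near the other group. EVM0006666 and EVM0006175 also lay below group C in every library, by log2 fold changes of -0.71 and -0.91 that missed the size threshold, and EVM0005628 lay above by 0.70. EVM0013078 overlapped between the groups (log2 fold change -0.31). Among the lncRNAs, XLOC_004061 fell as given above, and XLOC_002934 had 7.02, 10.5 and 8.85 in group D, against 2.13, 3.79 and 0 in group C (log2 fold change 1.97 ± 0.59 SE, limma adjusted p = 0.027), from 19 to 27 reads in group D and 0 to 5 in group C. Its call was lost in 7 of 24 alternatives, and after quantile normalization its log2 fold change was 0.20. XLOC_011327 (-0.90), XLOC_008354 (1.10), XLOC_002861 (0.42) and XLOC_003506 (-0.35) were not called, although XLOC_011327 and XLOC_008354 did not overlap between the groups. On the read scale of the mRNAs, XLOC_008354 and XLOC_002861 were called higher in group D, with log2 fold changes of 2.34 and 1.66.

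LncRNAs that the study paired with these pathways moved in part. XLOC_002302, which it set beside ERG13 in the genome, had 66.3, 53.8 and 48.3 in group D, against 164, 198 and 136 in group C, without overlap but also without a call (log2 fold change -1.54 ± 0.59 SE, limma adjusted p = 0.063). It was called in 7 of 24 alternatives, the fit of groups D and C alone among them. Its reads overlapped between the groups, with 296, 229 and 243 in group D and 381, 432 and 205 in group C. The gap between the groups therefore holds only on the scale of the lncRNA table. Of 33 lncRNAs paired with ergosterol mRNAs, XLOC_002302 by position and the others by co-expression, 7 rose and 0 fell, with a median log2 fold change of 0.48, beside 0.24 over all lncRNAs. XLOC_011365 was the most abundant of these 7, with 149, 125 and 98.0 in group D, against 38.3, 66.9 and 47.4 in group C, and XLOC_011225 had the largest change, with 13.3, 8.92 and 9.10 in group D, against 0, 3.0 and 0 in group C. The share called higher, 7 of 33, stands beside 16.6% of all lncRNAs. Of 29 lncRNAs paired with energy, fermentation and antioxidant mRNAs, 1 rose and 4 fell, beside 16.6% and 10.2% of all lncRNAs, with a median of -0.09. XLOC_010553 had 603, 434 and 394 in group D, against 1120, 828 and 1008 in group C, and XLOC_007904 had 88.9, 72.5 and 51.7 in group D, against 209, 182 and 190 in group C (log2 fold changes -1.06 and -1.47, limma adjusted p = 0.0045 and 0.0017). XLOC_006906 (-1.61) and XLOC_002973 (-1.28) also fell, and XLOC_010055, at 3.28 to 9.02 in group D and 0 to 1.89 in group C, rose. On the read scale of the mRNAs only 9 lncRNAs in all were called lower, beside 102 on their own scale. The falls given here are therefore changes relative to the other lncRNAs.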

How the data were processed

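RNA-seq libraries of S. latifolia fruiting bodies were compared between day 24 (group D) and day 16 (group C), 3 per group, within a series of 12. Libraries were made from rRNA-depleted total RNA with a kit that keeps the strand. The submitters' processing notes name cutadapt 2.7, FastQC 0.11.8, HISAT2 2.1.0 and StringTie 1.3.3b. The methods link to an NCBI assembly of the species as the alignment reference, whose name they do not print, and no coordinates are used here. Whether strand was used in counting: not given in the sources used here. The authors deposited 1 FPKM table per RNA class, and each had been normalized on its own. Columns were mapped to samples by name, and 0 identifiers occur in the RefSeq gene table, so the only products given are those the paper names.

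Scaled FPKM is the deposited FPKM over a library factor (0.983 to 1.02). This factor was the median ratio of mRNAs above 0 in all libraries to their geometric mean, and it served both tables. limma 3.58.1 (R 4.3.3) was run with a mean-variance trend on log2(scaled FPKM + 1), the 4 groups being a factor over 12 libraries, for transcripts that reached 1 FPKM in 3 libraries. P-values were Benjamini-Hochberg adjusted per table, and a call needed both an adjusted p under 0.05 and a log2 change of 1 or more. Single values were compared with two-sided exact permutation tests over libraries. Whole reads, lengths and library totals were recovered from the steps between FPKM values, with reads within 0.002 of a whole number, or 0.05 for deep transcripts and for lengths. The design had assumed that both tables shared a library scale, which the recovered totals did not bear out. Intervals of counting error are not given, and the floor of 3 reads covers counting error only.

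Transcripts named are, among called ones with a mean of at least 10 scaled FPKM and no overlap between the groups, the 8 mRNAs and 5 lncRNAs with the largest rise and fall and the 4 mRNAs and 3 lncRNAs with the largest gain and loss of FPKM. The 5 most abundant of each class and the members of the study's lists were added, called or not. XLOC_011365, XLOC_011225, XLOC_010553, XLOC_007904, XLOC_006906, XLOC_002973 and XLOC_010055 were named after their values were seen. The comparison, the lists and the tests were chosen with earlier results of these data known.

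Alternatives changed the pseudocount (0.1), the filter (none, or a mean of 5 FPKM), the scaling (none, quantile, or lncRNA factors), the libraries in the fit (groups D and C alone, or each library left out), the replicate block and the abundance classes. Chosen after the data were seen were limma voom on the recovered reads, the read scale of the mRNAs for lncRNAs, counts without the 2 longest lncRNAs, and removal of a lowess trend on length (span 0.3). The procedure was tested on simulated data for group D against group C: with 50 mRNAs of 10962 moved by each log2 size, it called 43 at 1.5, 47 at 2, 49 at 3 and 47 at -1.5, and 3 of 10762 unchanged ones. For 1002 lncRNAs it called 43 at 1.5, 45 at 2, 45 at 3 and 40 at -1.5, and 1 of 802 unchanged ones. The moved transcripts were drawn only from those of higher level in group C, so low transcripts were not tried. Simulated noise was normal and independent between transcripts, without any shift by length or scale. These rates therefore need not hold for the data themselves. Python 3.11.15, numpy 2.4.6, pandas 2.3.3 and matplotlib 3.10.9 were used for the rest.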

Additional observations from a re-analysis of the deposited data

How the results depend on the processing

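Calls of mRNAs were 1819 to 2124 with each library left out (2035 with all) and 1669 to 2267 under the other settings, always within 1.5 times. For lncRNAs, the read scale of the mRNAs, chosen after the data were seen, gave 491 calls (482 higher and 9 lower in group D) and limma voom on recovered reads at that scale 468 (458 and 10). Removal of the length trend gave 94 lncRNAs higher. With each library left out, 202 to 290 lncRNAs were called and 109 to 184 were higher, the lowest without group D replicate 1. Quantile normalization gave 111 higher and 111 lower, and factors from the lncRNAs gave 200 and 71, and 1389 and 715 mRNAs, beside 166 and 102 lncRNAs and 1053 and 982 mRNAs. Limma voom on recovered reads called 2242 mRNAs, and 151 lncRNAs higher and 71 lower. The lncRNA share of summed FPKM, which differed by -3.35 percentage points (group D minus group C) as deposited, differed by 1.79 on the read scale of the mRNAs. The share of lncRNAs of at least 1000 FPKM differed by -0.681 to 2.95 with a library left out. LncRNA reads per 100 mRNA reads, which differed by -9.40, differed by 2.32 without XLOC_013075 and XLOC_014006. Of mRNAs under 10 FPKM, 16.6% were called with a pseudocount of 0.1, and of lncRNAs under 10 FPKM 32.8% with classes by group C alone. XLOC_009279, not called, had a log2 fold change of 1.02 in voom at the read scale of the mRNAs. XLOC_013075 and XLOC_014006 lost their calls once the length trend was removed (-0.33 and -0.77), a trend to which their own values contributed. Of the values of named transcripts under the alternatives, 1323 kept their side of the call threshold, 56 lost a call, 26 gained one and 1 turned. Uncalled values that changed sign may be among the 1323, above all those of lncRNAs on the read scale of the mRNAs.

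The replicate numbers did not pair the samples: deviations from the group means correlated at -0.0129, -0.0174 and 0.0155 between libraries of groups D and C with the same number. With the replicate number as a block 2032 mRNAs and 268 lncRNAs were called, 2001 and 255 of them shared with the fit without it. Depth limited the low end: 66 of the 2035 mRNA calls and 58 of the 268 lncRNA calls had under 100 reads in their highest library.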
